A study of Mus musculus with 4 samples.

Results

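TGF-beta is a cytokine by which myeloid-derived suppressor cells (MDSCs) can restrain T cells, and this account describes 9 genes of its SMAD pathway: Tgfb1, Tgfbr1, Tgfbr2, Smad2, Smad3, Smad4, Smad7, Ski and Skil. They were taken by symbol from the 53465 genes of the count table, each symbol matched 1 row, and all 9 were among the 14682 genes with enough counts to be tested. The MDSCs came from the spleens of male BALB/c mice that carried tumors of 4T1, a transplantable mammary carcinoma line, and were picked out by magnetic beads for Gr-1, a surface marker of neutrophils and monocytes. The cells were then cultured for 6 h in control medium (2 libraries) or with EGCG, a green tea catechin, at 5 μg/mL (2 libraries), and total RNA was sequenced. All mice were 6 weeks old when injected and bore tumors, and no library came from healthy mice. The labels place the sorting on day 21 after injection and the methods after 2 weeks. Neither source names the mouse or well behind each library, so p-values measure the spread between these libraries, which may be technical.

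TGF-beta is secreted in a latent form and, once released, binds the type II receptor (Tgfbr2), which phosphorylates the type I receptor (Tgfbr1). The activated receptor phosphorylates SMAD2 and SMAD3, which join SMAD4 and enter the nucleus to regulate transcription. SMAD7 is an inhibitory SMAD that acts on the receptor, and SKI and SKIL (also called SnoN) are corepressors that bind SMADs on DNA. Smad7 and Skil are themselves induced by TGF-beta signaling in many cells and so form a negative feedback. Myeloid cells both make TGF-beta and respond to it.

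The libraries held between 17767318 and 18390385 counts on genes. The unit of a level is CPM, the count of a gene scaled by library size and TMM factor. Differences between the EGCG and control groups were tested in edgeR (quasi-likelihood), p-values were adjusted by Benjamini-Hochberg over 14682 genes, and a gene was called at an adjusted p under 0.05. The 14 neutrophil and MDSC markers, such as S100a8 and Ly6g, summed to 66625 and 78450 CPM in control and to 87426 and 77952 CPM with EGCG, with 10 of 14 above 0 (median log2 fold change of 0.11, highest in S100a8 at 0.38). Markers of other cell types were also present. The 10 macrophage markers summed to 795 and 770 CPM in control and to 600 and 701 CPM with EGCG, and all 10 had log2 fold changes below 0, none of them called. The 9 endothelial markers summed to 145 and 154 CPM in control and to 112 and 122 CPM with EGCG. The 8 that were tested had log2 fold changes below 0, again with no call. An unadjusted p under 0.05 by edgeR was reached by 6 macrophage and 6 endothelial markers, all lower. Of all tested genes, 7.02% reached it and were lower. The groups did not overlap for 6 macrophage and 7 endothelial markers, all lower, beside 21.2% of all tested genes that were apart and lower. Monocyte markers (7 genes, Fn1 among them) summed to 1496 and 1275 CPM in control and to 1138 and 1185 CPM with EGCG, with 6 of 7 below 0. Platelet markers summed to 184 and 186 CPM against 160 and 162 CPM, with all 7 tested genes below 0, and basophil and eosinophil markers to 1165 and 1040 CPM against 1011 and 870 CPM, with 5 of 7 below 0. The 7 stromal markers were low, at 3.61 and 1.29 CPM in control and 1.21 and 1.46 CPM with EGCG in all, and Lum had no counts. The 5 epithelial markers summed to 26.7 and 24.3 CPM against 22.7 and 25.9 CPM: Krt14 had no counts, Cdh1 had 402 and 366 counts in control and 294 and 345 with EGCG (log2 fold change of -0.26, adjusted p of 0.403 by edgeR), and Epcam had 65 and 59 counts in control and 92 and 99 with EGCG (log2 fold change of 0.63, adjusted p of 0.235 by edgeR). Other lists went the other way or overlapped. T and NK cell markers summed to 94.4 and 108.6 CPM in control and to 109.0 and 112.8 CPM with EGCG, with 6 of 8 tested genes above 0, and B and plasma cell markers to 540 and 582 CPM against 652 and 584 CPM, with 6 of 7 above 0. Erythroid markers (154 and 194 CPM against 184 and 206 CPM, 5 of 6 tested above 0) and dendritic cell markers (144 and 135 CPM against 119 and 139 CPM, 2 of 8 above 0) overlapped between the groups. No marker of these lists was called. In such bulk RNA, fewer cells of a type and less RNA per cell cannot be told apart. Control replicate 1 stood further from the EGCG libraries than control replicate 2 did: a chi-square of counts averaged 16.0 and 12.4 per gene against 7.57 and 6.70, whereas the control libraries differed from each other by 6.85 and the EGCG libraries by 6.64. Results are therefore also given without single libraries.

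None of the 9 genes was called between EGCG and control. Across all tested genes, 0.15% were called (22 genes), 0.136% lower (20 genes) and 0.0136% higher (2 genes) with EGCG. Of the 9 genes, 5 had log2 fold changes below 0 and 4 above 0, with a median of -0.0045 beside 0.0031 over all tested genes, of which 49.4% were below 0. Their median standard error was 0.078 on the log2 scale, beside 0.13 over all tested genes, so that these genes were measured with better than usual precision. The 95% intervals of their fold changes, each taken singly, reached from -0.36 to 0.30 on the log2 scale, that is from -22.2% (Ski) to 23.3% (Smad3), and 8 of the 9 intervals held 0. An unadjusted p under 0.05 was reached by 1 of the 9 genes (11.1%), beside 12.2% of all tested genes, 7.02% lower and 5.22% higher with EGCG. The EGCG libraries lay entirely on one side of the control libraries for 2 of the 9 genes (22.2%), both lower with EGCG, beside 42.7% of all tested genes, 21.2% lower and 21.5% higher. With both directions pooled, these shares of the 9 genes were below those of all tested genes, and the lower genes alone made up 11.1% beside 7.02% and 22.2% beside 21.2%, which rest on 1 and 2 genes. With 2 libraries against 2, an exact permutation test cannot go below a two-sided p of 0.333.

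**Figure D1:**
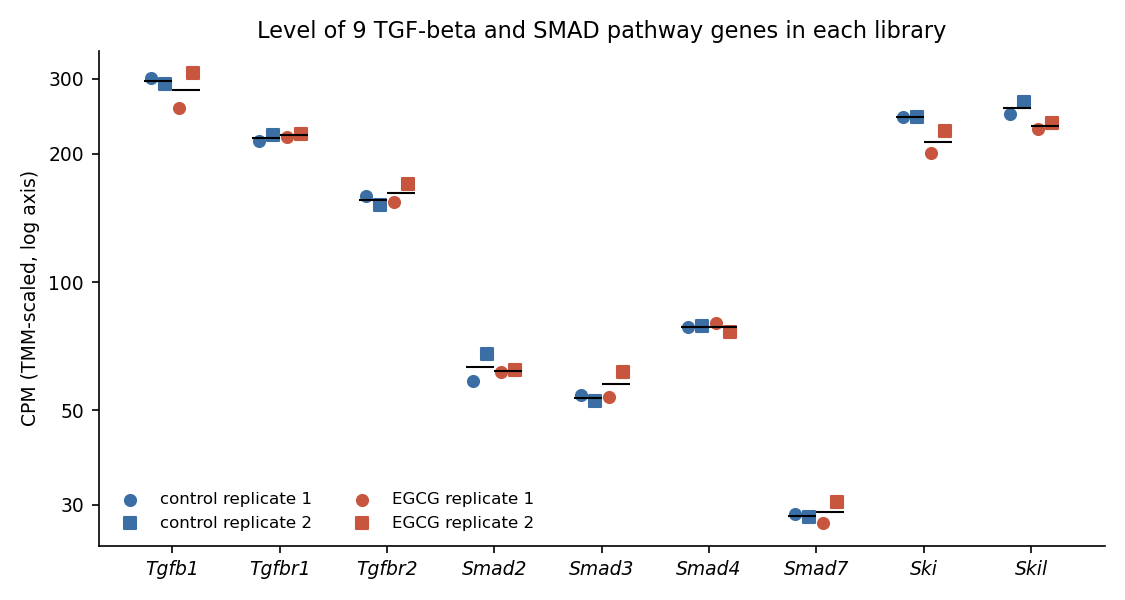
Level of each gene in the 4 libraries, in CPM on a log axis. Blue points are control libraries, red points are EGCG libraries, circles are replicate 1, squares are replicate 2 and black bars are group means. The red and blue points overlap for every gene but Ski and Skil, which were lower in both EGCG libraries.

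The ligand gene Tgfb1 (ENSMUSG00000002603) lies on chromosome 7 of GRCm38 from 25687002 to 25705077 on the plus strand. Its level was 302 and 292 CPM in control and 257 and 309 CPM with EGCG. The EGCG libraries thus lay on both sides of the control libraries, replicate 1 below them and replicate 2 above. The group means were 297 ± 6.90 CPM (SD, n = 2) in control and 283 ± 37.1 CPM (SD, n = 2) with EGCG. This gave a log2 fold change of -0.068 (standard error 0.088, 95% interval from -0.26 to 0.12, adjusted p of 0.814 by edgeR). Between the EGCG libraries alone the gap was 0.27 on the log2 scale, larger than the fold change. The direction of Tgfb1 rested on which EGCG library was used: its log2 fold change was 0.063 without EGCG replicate 1 and -0.21 without EGCG replicate 2. The counts behind these values were between 4656 and 5524 per library, so counting error alone was at most 1.47%.

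**Figure D2:**
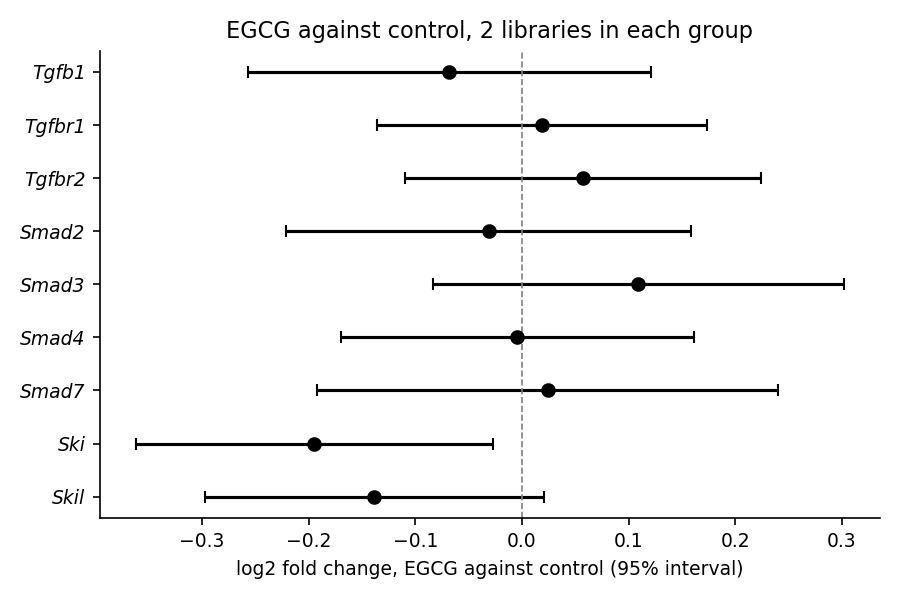
Log2 fold change of each gene, EGCG against control, as a point with its 95% interval from edgeR's fit, with 2 libraries in each group. The interval of Ski lies below 0, from -0.36 to -0.027, and the other 8 hold 0. No adjusted p was under 0.05.

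The type I receptor gene Tgfbr1 (ENSMUSG00000007613, chromosome 4, 47353222 to 47414931, plus strand) was at 215 and 222 CPM in control and at 219 and 223 CPM with EGCG. All 4 libraries lay close together and the groups overlapped. Its log2 fold change was 0.019 (standard error 0.072, 95% interval from -0.14 to 0.17, adjusted p of 0.948 by edgeR), the smallest standard error of the 9 genes. The type II receptor gene Tgfbr2 (ENSMUSG00000032440, chromosome 9, 116084293 to 116175360, minus strand) was at 160 and 152 CPM in control and at 154 and 170 CPM with EGCG. Its groups overlapped too, with EGCG replicate 2 the highest library. The log2 fold change of Tgfbr2 was 0.057 (standard error 0.078, 95% interval from -0.11 to 0.22, adjusted p of 0.825 by edgeR), and it was -0.011 without EGCG replicate 2. Both receptors take part in one complex, and the ratio of Tgfbr1 to Tgfbr2, in CPM per kilobase of exon, was 1.69 and 1.83 in control and 1.78 and 1.65 with EGCG.

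The receptor-regulated SMAD genes carry the signal from the receptor. Smad2 (ENSMUSG00000024563, chromosome 18, 76241580 to 76310963, plus strand) was at 58.7 and 67.8 CPM in control and at 61.5 and 62.3 CPM with EGCG, which fell between the control libraries. Here the gap between the control libraries, 0.21 on the log2 scale, exceeded the log2 fold change of -0.031 (standard error 0.089, adjusted p of 0.926 by edgeR). Without control replicate 1 the log2 fold change was -0.13, and without control replicate 2 it was 0.079. Smad3 (ENSMUSG00000032402, chromosome 9, 63646767 to 63757994, minus strand) was at 54.4 and 52.5 CPM in control and at 53.8 and 61.6 CPM with EGCG. Only EGCG replicate 2 stood above the other 3 libraries. Smad3 had the largest log2 fold change above 0 of the 9 genes, 0.11 (standard error 0.090, 95% interval from -0.084 to 0.30, adjusted p of 0.673 by edgeR), which was 0.0095 without EGCG replicate 2 and 0.21 without EGCG replicate 1. Per kilobase of exon, Smad3 was between 1.23 and 1.57 times the level of Smad2 in every library.

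Smad4 (ENSMUSG00000024515, chromosome 18, 73639009 to 73703780, minus strand) encodes the common partner of the receptor-regulated SMADs. It was at 78.5 and 78.8 CPM in control and at 80.4 and 76.5 CPM with EGCG, which lay on either side of control. Its log2 fold change was the closest to 0 of the 9 genes, -0.0045 (standard error 0.077, 95% interval from -0.17 to 0.16, adjusted p of 0.988 by edgeR). Smad7 (ENSMUSG00000025880, chromosome 18, 75367529 to 75395935, plus strand), the inhibitory SMAD and feedback target, had the lowest level of the 9 genes, 28.6 and 28.1 CPM in control and 27.2 and 30.5 CPM with EGCG. Again the EGCG libraries lay on either side of the control libraries. Smad7 had a log2 fold change of 0.024 (standard error 0.10, 95% interval from -0.19 to 0.24, adjusted p of 0.953 by edgeR), and without EGCG replicate 2 it was -0.059. With counts between 493 and 544, Smad7 had the largest counting error, at most 4.50%.

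The corepressor genes Ski and Skil were the only members of the 9 whose groups did not overlap in TMM-scaled CPM. Ski (ENSMUSG00000029050, chromosome 4, 155154075 to 155222592, minus strand) was at 244 CPM in both control libraries and at 201 and 226 CPM with EGCG. The control libraries almost coincided, and EGCG replicate 1 was the lowest library. Its means were 244 ± 0.126 CPM (SD, n = 2) in control and 213 ± 17.4 CPM (SD, n = 2) with EGCG. The log2 fold change of Ski was -0.19 (standard error 0.078, 95% interval from -0.36 to -0.027), with an unadjusted p of 0.0260 and an adjusted p of 0.343 by edgeR. This was the smallest p of the 9 genes, but it did not pass the adjustment. The median absolute log2 fold change of all tested genes was 0.13. Without EGCG replicate 1 the log2 fold change was -0.11, and without EGCG replicate 2 it was -0.28.

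Skil (ENSMUSG00000027660, chromosome 3, 31095058 to 31122577, plus strand) was at 249 and 264 CPM in control and at 229 and 237 CPM with EGCG. The higher EGCG library lay below the lower control library. Skil had a log2 fold change of -0.14 (standard error 0.074, 95% interval from -0.30 to 0.020, adjusted p of 0.486 by edgeR). Without control replicate 2 it was -0.092 and without control replicate 1 it was -0.18. Ski and Skil kept their direction below 0 with each library left out and under the 12 other settings tried, but with a correction for gene length Skil was -0.054 and its groups overlapped, while those of Tgfbr1, Tgfbr2 and Smad3 no longer did. The summed macrophage, endothelial, monocyte, platelet, and basophil and eosinophil markers given above also were lower in both EGCG libraries than in both control libraries, while the T and NK cell markers and the B and plasma cell markers were higher in both, and the part of any of these in the values of Ski and Skil was not tested. The ratio of Ski to Skil per kilobase of exon was 1.71 and 1.61 in control and 1.53 and 1.66 with EGCG, and these ranges overlapped.

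**Figure D3:**
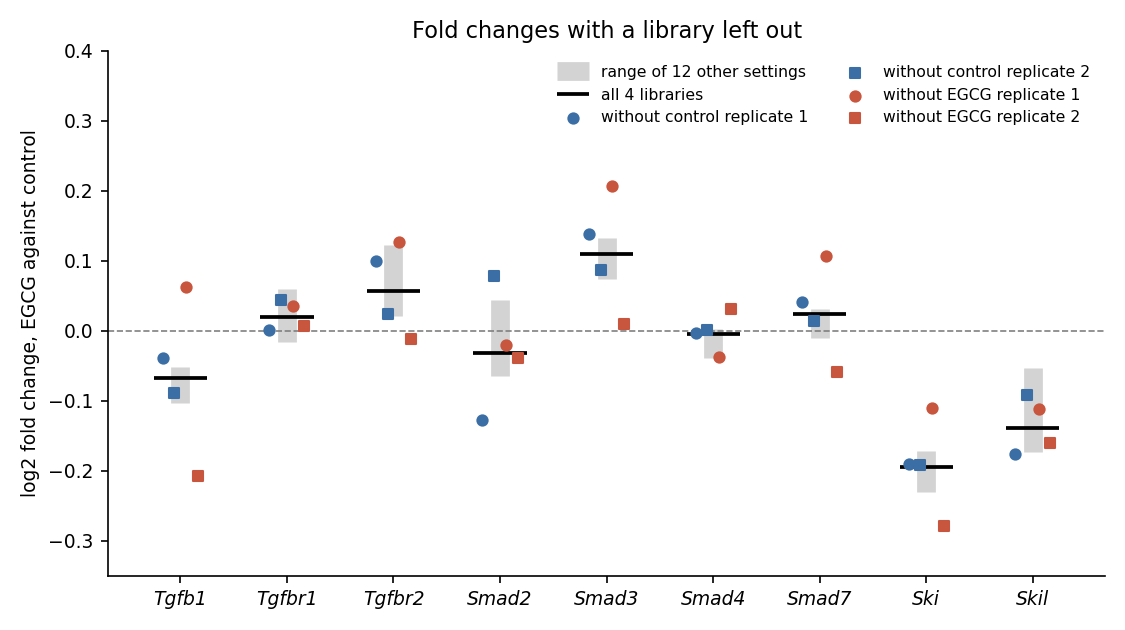
Log2 fold change of each gene with all 4 libraries (black bar), with each library left out (points, coloured and shaped by the library left out) and over 12 other settings of filter, scaling, test, block and length correction (grey bar). Ski, Skil and Smad3 stay on one side of 0, whereas Tgfb1 runs from -0.21 to 0.063.

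The order of the levels was compared per kilobase, using the merged exon length of each gene in GENCODE M21. Tgfb1 was the highest with a mean of 57.5 CPM per kilobase over the 4 libraries, above 93.4% of all tested genes. It was followed by Ski at 41.2, Tgfbr1 at 33.6, Skil at 25.2, Smad4 at 21.2, Tgfbr2 at 19.4, Smad3 at 10.0, Smad2 at 7.13 and Smad7 at 6.32 CPM per kilobase. Of the 8 pairs of neighbours in this order, the ranges over the libraries overlapped for Smad4 and Tgfbr2 and for Smad2 and Smad7, and the other 6 pairs were separate in all 4 libraries. The ligand gene, a corepressor gene and the type I receptor gene thus stood at the top, and the signal-carrying SMAD genes and Smad7 at the bottom. Merged exons are at least as long as any one transcript, so the order could differ with another transcript length, which was not tested. The exons of the 9 genes overlapped no other annotated gene, and at most 2.34% of the 31-base words of their transcripts (Tgfb1) occurred in transcripts of other genes.

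The promoters of Tgfb1, the ligand gene, and of Ski, the gene with the smallest p of the 9, are shown. These genes also had the highest levels per kilobase. Each run of 300 bases, 250 before and 50 after the start of the RefSeq gene model on GRCm38.p6, is given 5′ to 3′ on the strand of the gene, with capitals where GGCGGG or its reverse complement CCCGCC occurs. These letters are a core that proteins of the Sp1 family bind. The promoter of Tgfb1 is at chr7:25686752-25687051 on the plus strand and that of Ski at chr4:155222486-155222785 on the minus strand.
Tgfb1: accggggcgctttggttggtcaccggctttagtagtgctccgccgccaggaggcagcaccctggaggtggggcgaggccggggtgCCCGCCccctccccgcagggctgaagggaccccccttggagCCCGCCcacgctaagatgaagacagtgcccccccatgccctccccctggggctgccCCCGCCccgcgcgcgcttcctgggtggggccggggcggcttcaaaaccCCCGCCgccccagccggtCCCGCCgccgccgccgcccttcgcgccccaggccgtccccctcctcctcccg
Ski: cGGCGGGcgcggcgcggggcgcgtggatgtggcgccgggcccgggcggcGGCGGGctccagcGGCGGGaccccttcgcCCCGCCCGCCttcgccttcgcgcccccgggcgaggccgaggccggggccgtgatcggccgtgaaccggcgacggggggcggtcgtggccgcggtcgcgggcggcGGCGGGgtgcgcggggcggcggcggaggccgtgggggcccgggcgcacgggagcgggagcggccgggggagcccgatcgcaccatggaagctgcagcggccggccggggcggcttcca
The promoter of Tgfb1 held 5 such matches and that of Ski held 6, of which 2 overlap each other, while 35.3% of the 32851 promoters in the RefSeq table held at least 1. Their GC contents were 77.0% and 85.3%, beside a median of 52.7% over all promoters. The letters CAGAC or GTCTG, which contain the core of a SMAD binding element, were found in neither of these 2 promoters. The shorter core AGAC does occur in the run shown for Tgfb1. Of all promoters, 49.6% held CAGAC or GTCTG, a share that was not matched for GC content. The table had entries for 5 of the 9 genes. Among the other 3, CAGAC or GTCTG occurred once in the promoter of Tgfbr2 and once at 1 of the 2 start sites of Tgfbr1, and not in that of Smad3. GGCGGG or CCCGCC occurred 5 times at the other start site of Tgfbr1, and 1 time each in the promoters of Smad3 and Tgfbr2. These are matches of letters and not measured binding.

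The other genes of the pathway were described from lists by role, with 88 genes in the table, of which 73 had enough counts to be tested. None was called by edgeR (smallest adjusted p of 0.0870). The log2 fold change was below 0 for 45 and above 0 for 28, with a median of -0.044. An unadjusted p under 0.05 was reached by 7 of the 73 genes (9.59%), 5 lower and 2 higher with EGCG, beside 12.2% of all tested genes. The groups did not overlap for 31 (42.5%), beside 42.7% of all tested genes. Most of these 31 were lower with EGCG. Lower and higher genes were 6 and 0 (ligands and activation), 4 and 0 (receptors) and 4 and 1 (SMADs and partners). They were 2 and 4 (inhibitors and turnover), 4 and 2 (targets) and 2 and 2 (signaling outside the SMADs). Over all tested genes the shares were 21.2% lower and 21.5% higher. Fold changes fell with exon length across 14666 genes (Spearman correlation of -0.286). The counts of these lists were not repeated with the correction for gene length.

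**Figure D4:**
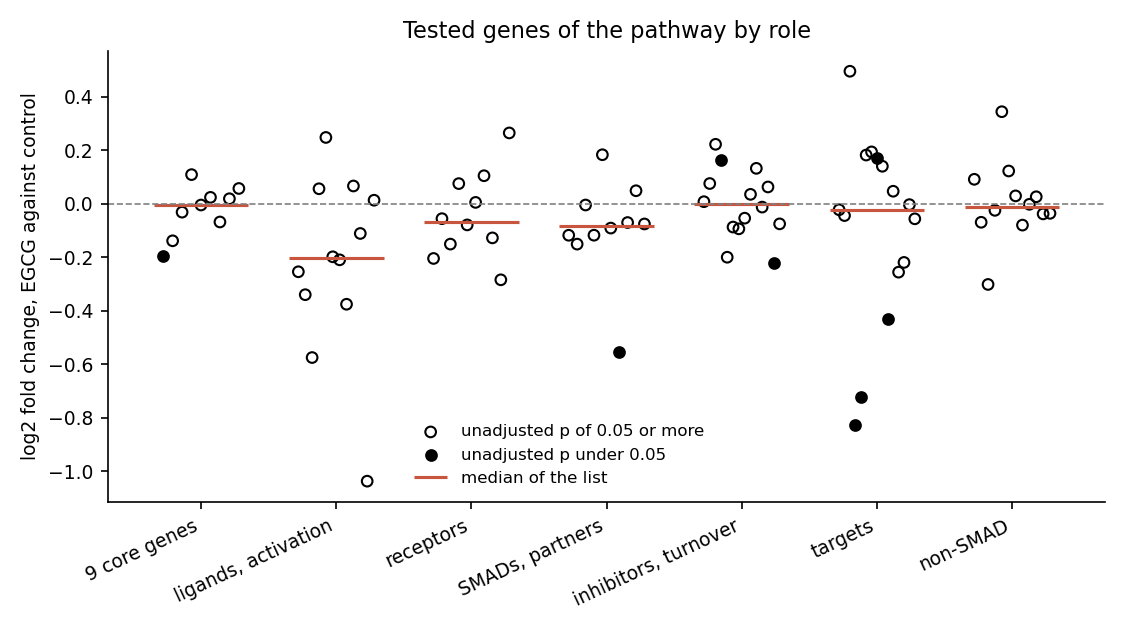
Log2 fold change, EGCG against control, of the tested genes of 7 lists by role, 1 point a gene. Filled points have an unadjusted p under 0.05, open points do not, and red lines are the medians of the lists. The medians lie between -0.20 (ligands and activation) and -0.0022 (inhibitors and turnover), and no point was called after adjustment.

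Among the ligands and the genes that store or activate them, 12 of 20 were tested, of which 4 had log2 fold changes above 0 and 8 below, with no unadjusted p under 0.05. The values of genes named in this paragraph were chosen after they had been seen, to set the level of the ligand. Tgfb1 was by far the main TGF-beta gene in the table: Tgfb2 had 14 and 11 counts in control and 6 and 6 with EGCG, and Tgfb3 had 6 and 4 counts in control and 9 and 9 with EGCG. Nrros, which holds latent TGF-beta on myeloid cells, was at 331 and 320 CPM in control and at 299 and 304 CPM with EGCG. The groups of Nrros did not overlap, and its log2 fold change was -0.11 (standard error 0.073, adjusted p of 0.584 by edgeR). Furin, a protease that cleaves the TGF-beta precursor, was at 428 and 436 CPM in control and at 420 and 478 CPM with EGCG, and these groups overlapped.

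Of the 11 receptor genes 10 were tested, with 4 log2 fold changes above 0 and 6 below, from -0.28 (Eng) to 0.27 (Tgfbr3), and no unadjusted p under 0.05. Bmpr1b had no counts. Among other SMADs and their partners, 10 of 12 were tested, 2 above and 8 below 0. Smad6, the inhibitory SMAD of BMP signaling, was at 4.05 and 4.70 CPM in control and at 2.65 and 3.30 CPM with EGCG. Both EGCG libraries were below both control libraries, on counts between 48 and 84. Smad6 had a log2 fold change of -0.56 (standard error 0.23, unadjusted p of 0.0286, adjusted p of 0.352 by edgeR). The 8 tested endothelial markers, all below 0, had a median log2 fold change of -0.57. The part of these or other marker lists in the value of Smad6 was not tested.

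All 14 genes that restrain the pathway or turn over its proteins were tested, 7 above and 7 below 0. Usp9x, which encodes a deubiquitinase that acts on SMAD4, was at 131 and 130 CPM in control and at 111 and 112 CPM with EGCG. Its replicates were close together and the groups were apart. Usp9x had a log2 fold change of -0.22 (standard error 0.073, unadjusted p of 0.00877, adjusted p of 0.244 by edgeR), and it was -0.082 with the correction for gene length. Ppm1a, which encodes a phosphatase of SMAD2 and SMAD3, was at 138 and 149 CPM in control and at 160 and 161 CPM with EGCG, and its log2 fold change was 0.16 (standard error 0.075, unadjusted p of 0.0463, adjusted p of 0.403 by edgeR). With the correction for gene length this value was 0.28. Ppm1a was one of the 2 genes with an unadjusted p under 0.05 that were higher with EGCG.

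Of 19 textbook targets of TGF-beta or BMP signaling, 15 were tested, 6 above and 9 below 0, with a median log2 fold change of -0.022. An unadjusted p under 0.05 was reached by 3 targets that were lower (20% of 15) and 1 that was higher with EGCG (6.67%), beside 7.02% and 5.22% of all tested genes. The higher one was Id2, which encodes an inhibitor of basic helix-loop-helix factors and is named here after its values were seen. It was at 224 and 247 CPM in control and at 261 and 269 CPM with EGCG, so that the groups did not overlap, and its log2 fold change was 0.17 (standard error 0.077, unadjusted p of 0.0438, adjusted p of 0.398 by edgeR). Fn1, the gene of fibronectin, was at 490 and 304 CPM in control and at 218 and 263 CPM with EGCG. Control replicate 1 was far above the other libraries. The log2 fold change of Fn1 was -0.72 (standard error 0.16, adjusted p of 0.0870 by edgeR) and -0.33 without control replicate 1. Fn1 is also on the monocyte list, whose other 6 markers summed to 1005 and 971 CPM in control and to 920 and 922 CPM with EGCG, and their part in the value of Fn1 was not tested. Ctgf, which encodes a matrix-associated growth factor, was at 3.61 and 4.59 CPM in control and at 2.54 and 2.07 CPM with EGCG, on counts between 37 and 82. Its log2 fold change was -0.83 (standard error 0.25, unadjusted p of 0.00482, adjusted p of 0.218 by edgeR). The part of the endothelial or other marker lists in the value of Ctgf was not tested. Tgfbi, a secreted matrix protein named for its induction by TGF-beta and chosen here after its values were seen, was at 438 and 442 CPM in control and at 425 and 454 CPM with EGCG, so that the groups overlapped. Its log2 fold change was -0.0030 (standard error 0.075, 95% interval from -0.16 to 0.16). All 12 genes of TGF-beta signaling outside the SMADs were tested, 5 above and 7 below 0, from -0.30 (Map2k6) to 0.34 (Pard6a), with no unadjusted p under 0.05.

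Among the genes whose levels varied most like those of Tgfb1 over the 4 libraries were Vps39 and Mrpl28, with Pearson correlations of log2 CPM of 0.99999 and 0.9995. For Ski they were E2f8, Car13 and Uhrf1, with correlations of 0.9995, 0.9994 and 0.9994. With only 4 libraries such likeness is common: of 13625 other genes with at least 10 counts in every library, 291 (2.14%) had a correlation of 0.95 or more with Tgfb1 and 437 (3.21%) with Ski. The size of change is not part of this measure. E2f8, for example, was at 31.8 and 31.8 CPM in control and at 30.8 and 31.4 CPM with EGCG, a smaller difference than that of Ski.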

How the data were processed

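Per the labels and the methods, the authors aligned reads with STAR 2.6.0c to GRCm38 and counted them per gene with featureCounts 1.6.2 on Ensembl release 91, without strand, as the deposited count table is named. The deposited counts are whole numbers without normalization; 0 lines named no gene and 0 columns belonged to other samples. From them, genes were filtered with filterByExpr (minimum count of 10), scaled by TMM and tested with edgeR 4.0.16 (legacy quasi-likelihood fit, R 4.3.3), adjusting p-values by Benjamini-Hochberg over every gene tested; the call threshold was 0.05. The standard error is the log2 fold change divided by the square root of F, and intervals use the test's degrees of freedom. Counting errors cover counting only, since PCR reads are not independent molecules.

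Named pathway genes are the 9 members, then in each role list those called and up to 2 with the smallest unadjusted p under 0.05. These needed at least 10 counts in every library. Outside this rule, Tgfb2, Tgfb3, Nrros, Furin, Id2, Jag1 and Tgfbi were added after their values had been seen. Eng, Tgfbr3, Map2k6 and Pard6a are named as the ends of a list's range, and Bmpr1b for its lack of counts. Likeness was taken for Tgfb1 and for the gene with the smallest p, as the 3 highest Pearson correlations of log2 CPM (prior count of 2); 1 of these genes is not reported here. The members and lists were chosen with earlier results of these data known. Where 2 rows shared a symbol, the row with more counts was used. GENCODE M21 (GRCm38) gave positions and merged exon lengths for 53360 of 53465 identifiers, and RefSeq gave promoters. The fit and the length correction (loess, span 0.4, in each library) were tested on simulated data. Alternatives used DESeq2 1.42.0 and limma 3.58.1, other scalings, filters and fits, a replicate block and each library left out. Figures were drawn with matplotlib 3.10.9 in Python 3.11.15.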

Additional observations from a re-analysis of the deposited data

How the results depend on the processing

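None of the 9 genes was called under any of the 16 alternatives (smallest adjusted p of 0.191 by edgeR, for Ski without EGCG replicate 2). Of their 144 log2 fold changes under these alternatives, 133 kept their direction. The other 11, all of uncalled genes, were 0.0030 for Smad4 with upper-quartile scaling, -0.016 for Tgfbr1 and -0.011 for Smad7 with library size only, 0.040 for Smad2 with the length correction, also together with the replicate block (0.044), and those with a library left out. With a library left out the ranges were -0.21 to 0.063 for Tgfb1, -0.011 to 0.13 for Tgfbr2, -0.13 to 0.079 for Smad2, -0.038 to 0.031 for Smad4 and -0.059 to 0.11 for Smad7. The median of the 9 genes was -0.040 with library size only, 0.031 with the length correction and 0.030 with the replicate block and length correction, and from -0.038 to 0.035 with a library left out.

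Of the 9 genes, 2 had groups apart with TMM, RLE or library size only (beside 42.7%, 42.8% and 42.1% of all tested genes), 3 with upper-quartile scaling (beside 43.1%) and 4 with the length correction (44.4% beside 40.5%; Ski lower, Tgfbr1, Tgfbr2 and Smad3 higher). Fold changes fell with exon length across 14666 genes, which are not independent replicates (Spearman correlation of -0.286), and 8 of the 9 genes are longer than the median tested gene of 3.81 kilobases.

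The number of genes called over the whole table was 22, and 11 with upper-quartile scaling, 151 with library size only, 63 with edgeR's robust fit, 64 with DESeq2, 8 with the length correction (2 higher and 6 lower), 38 with the replicate block and length correction (9 higher and 29 lower), and from 77 to 354 with a library left out, where the lone library of a group is assumed to vary like the others. Without a filter on low counts it was 0 by edgeR, with 1795 genes at an unadjusted p under 0.05. Of the other pathway genes, 1 was called with library size only and 0 to 1 with a library left out. That gene was Fn1, with adjusted p from 4.85e-12 to 0.659 over its alternatives.

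The replicate block gave 30 calls over the table and 0 among the 9 genes. Same-numbered libraries deviated together only weakly (correlation of 0.0336 across 14682 genes), and whether they share a cell preparation is not stated in the labels, so the block was not used in the main test. Counting error was at most 4.50% for any of the 9 genes.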
